A study of Homo sapiens with 13 samples.

Results

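The genes described here lie in the Prader-Willi and Angelman domain on the long arm of human chromosome 15, bands 15q11-q13. They are SNRPN, SNURF, NDN, MAGEL2, MKRN3, UBE3A, ATP10A, NIPA1 and NIPA2. Members were chosen by gene symbol: every array probe whose symbol in the scanner files is one of these names. That gave 9 genes out of 21789 with a symbol on the array, each read by 1 probe, and 22 spots in all. Probes were taken by symbol alone, but the gene names were chosen with earlier results of these data known.

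Total RNA of HEK293T cells, a line from human embryonic kidney with the large T antigen of SV40, was hybridised to 13 Agilent Human 8x60K 2-colour arrays, with a treated RNA in one dye and its control RNA in the other. Cells given a G9a siRNA were compared with cells given a control siRNA after 72 h (2 biological replicates on 2 arrays, treated RNA in Cy5 on both). Cells given a WIZ siRNA were compared with control siRNA after 72 h (2 biological replicates on 4 arrays, each replicate in both dye orientations). Cells given UNC0638, a small-molecule inhibitor of G9a and GLP, at 1 µM were compared with cells given the solvent DMSO after 48 h (5 biological replicates on 7 arrays, replicates 1 and 2 in both dye orientations and 3 to 5 with treated RNA in Cy5). All siRNAs came from Dharmacon and were carried into the cells with the lipid reagent DharmaFECT 4, so the control siRNA cells went through transfection too. The labels do not say whether the G9a and WIZ arms used the same control RNA.

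The domain is a textbook case of genomic imprinting, in which a gene is read from only the copy inherited from one parent. SNRPN, SNURF, NDN, MAGEL2 and MKRN3 are read from the paternal copy, and their loss underlies Prader-Willi syndrome. UBE3A is read mainly from the maternal copy in neurons, where its loss causes Angelman syndrome, and from both copies in most other tissues. ATP10A was described as maternally expressed in some tissues, and NIPA1 and NIPA2, at the proximal end of the domain, are not imprinted. G9a (gene EHMT2) and its partner GLP (gene EHMT1) methylate histone H3 at lysine 9, WIZ is a zinc finger protein that binds both, and inhibitors of G9a have been reported to switch on the silent maternal SNRPN copy in cells of Prader-Willi patients.

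The sequences that matter most for reading the imprinted members are the shared start of SNURF and SNRPN, where the domain's imprint is set by CpG methylation, and the start of UBE3A, the member with the largest response. Both windows run from 250 bases before to 50 bases after a transcript start in RefSeq (GRCh38.p14). Capitals mark CG dinucleotides (CpG), the letters searched for, which read the same on both strands.
SNURF and SNRPN, chr15:24954737-24955036, plus strand: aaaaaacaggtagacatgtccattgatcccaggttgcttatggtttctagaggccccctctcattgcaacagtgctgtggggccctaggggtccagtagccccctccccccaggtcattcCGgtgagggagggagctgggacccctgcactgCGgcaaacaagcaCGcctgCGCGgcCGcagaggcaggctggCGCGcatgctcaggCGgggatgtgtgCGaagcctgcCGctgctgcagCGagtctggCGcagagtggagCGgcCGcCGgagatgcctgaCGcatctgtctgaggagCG
UBE3A, chr15:25438975-25439274, minus strand: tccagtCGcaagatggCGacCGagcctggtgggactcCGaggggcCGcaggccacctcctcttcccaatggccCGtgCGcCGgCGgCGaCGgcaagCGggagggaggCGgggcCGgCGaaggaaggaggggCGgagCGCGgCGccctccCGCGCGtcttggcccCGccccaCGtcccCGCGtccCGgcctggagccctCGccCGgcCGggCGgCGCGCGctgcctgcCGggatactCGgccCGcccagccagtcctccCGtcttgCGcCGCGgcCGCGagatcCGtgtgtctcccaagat
The SNURF and SNRPN window held 18 CpG and the UBE3A window 44. Over all 35116 RefSeq promoter windows of 300 bases, 96% held at least 1 CpG and the median was 14, so that the SNURF and SNRPN window held more than 55.5% of windows and the UBE3A window more than 95.8%. The other members' windows held 9 CpG at MAGEL2, 15 at MKRN3, 35 at NDN, 37 at ATP10A, 37 at NIPA2 and 40 at NIPA1. RefSeq gave 14 windows for the 9 genes, and the windows at other starts held 7, 2 and 11 CpG at SNRPN and 38 and 39 at UBE3A. The SNRPN window printed is the one it shares with SNURF, and the UBE3A window is its most CpG-rich. These counts describe the letters, and methylation was not measured here.

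The probes of SNURF and SNRPN are shown because they read 2 reading frames of a single transcript unit. SNURF is the upstream frame, and SNRPN encodes SmN, a spliceosome core protein abundant in brain. In the coordinates of the scanner files (build 37.1) the probes stand 13197 bases apart on the plus strand.
SNURF probe, chr15:25207266-25207325: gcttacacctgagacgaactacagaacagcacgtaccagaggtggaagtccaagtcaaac
SNRPN probe, chr15:25220523-25220582: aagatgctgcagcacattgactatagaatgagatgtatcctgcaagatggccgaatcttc
Both run 5′ to 3′ over 60 bases. The files also place the probes of MAGEL2 (chr15:23889022-23889081), NDN (chr15:23931055-23931114), UBE3A (chr15:25582865-25582924) and ATP10A (chr15:25923875-25923934), all on the minus strand.

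Array quality touched these genes in several ways. The median brightness of a spot lay between 146 and 308 in Cy3 and between 120 and 468 in Cy5. The SD of log2 ratios over the probes kept was 0.484 and 0.612 in the G9a siRNA replicates, 0.173 and 0.17 in the WIZ siRNA replicates and 0.169, 0.166, 0.5, 0.269 and 0.306 in UNC0638 replicates 1 to 5. UNC0638 replicate 3 stood apart: over all probes its ratios correlated with those of the G9a siRNA replicates at r = 0.867 and 0.829, and with those of UNC0638 replicate 4 at 0.641. UBE3A and NIPA1 under UNC0638, and the calls in the difference of G9a siRNA from UNC0638, are given with and without it. The other UNC0638 means include it. The arrays also fell into 2 sets by the pixel SD of the Cy3 background, with G9a siRNA and UNC0638 replicates 3 to 5 in one and WIZ siRNA with UNC0638 replicates 1 and 2 in the other, and the sources used here do not say what sets them apart. Knockdown was seen in every replicate: EHMT2 RNA stood at 31.4% and 31.8% of control under G9a siRNA, and WIZ RNA at 20.8% and 25.6% under WIZ siRNA. Of 8 marker genes of HEK293T cells, 8 were well above background on all 13 control channels, while of 8 markers of blood, liver, fibroblast, endothelial and heart cells 2 were and none was below it on every control channel. Among the HEK293T markers EYA1 rose by 0.87 on the log2 scale under G9a siRNA and KRT18 fell by 0.5 (adjusted p = 0.00343 and 0.00734, limma), and INA fell by 0.75 under WIZ siRNA (adjusted p = 0.0129), and their part in the results was not tested.

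The paternally expressed genes were dim in these cells, with the exception of MAGEL2. A spot counts as well above background where it exceeds the median of its local background by more than 2.6 background SDs. The SNRPN probe passed this in treated RNA on 3 of 13 arrays and in control RNA on 2, and the SNURF probe on 4 and 2. The probe of NDN, which encodes necdin, a MAGE family protein that restrains growth in neurons, passed on 2 treated and 0 control channels. All 3 stayed at the level of the background on many arrays: SNRPN lay at 0.84 to 3.31 times the background in treated RNA and at 0.975 to 2.59 times in control RNA, SNURF at 0.875 to 4.4 and 0.897 to 4.46 times, and NDN at 0.961 to 2.57 and 1.17 to 3.17 times. No treatment brought any of the 3 above background on most of its arrays. SNURF passed on 2 of 4 treated and 0 of 4 control channels under WIZ siRNA, and NDN on 2 of 7 and 0 of 7 under UNC0638, while the other counts of treated and control channels differed by at most 1. Those passes of SNURF and NDN were all on arrays with treated RNA in Cy3. On these arrays 81.3 to 91.4% of probes passed in Cy3 and 60.6 to 64.2% in Cy5. Under G9a siRNA none of the 3 was well above background on either channel of either array, so no fold is given there. A change within these dim levels was not detectable at this signal.

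MKRN3, a RING finger ubiquitin ligase whose paternal loss causes early puberty, was a little brighter. It was well above background on 10 treated and 12 control channels of 13, at 2.1 to 5.85 and 2.32 to 6.42 times the background. MAGEL2, a MAGE protein that works with the ligase TRIM27 and the deubiquitinase USP7 on endosomes, passed on all 13 arrays in both channels, at 9.52 to 19.4 and 11.7 to 23.2 times. ATP10A, a P4 ATPase that flips lipids across membranes, passed on 5 channels of each kind. UBE3A, which encodes the ubiquitin ligase E6AP, and NIPA1 and NIPA2, which encode magnesium transporters, passed everywhere: UBE3A at 47.5 to 220 times the background in treated RNA and 56.6 to 171 in control RNA, NIPA1 at 124 to 209 and 129 to 247, and NIPA2 at 572 to 1050 and 557 to 1390. Brightness depends on the probe, so these figures show where a probe stands above its own background and not which gene is the more abundant. In total, 7 of the 9 member probes met the filter on dim spots (well above background on 50% or more of the arrays of some RNA group) and were tested. SNRPN and NDN did not, and SNURF and ATP10A met it through only some of the arrays.

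**Figure D1:**
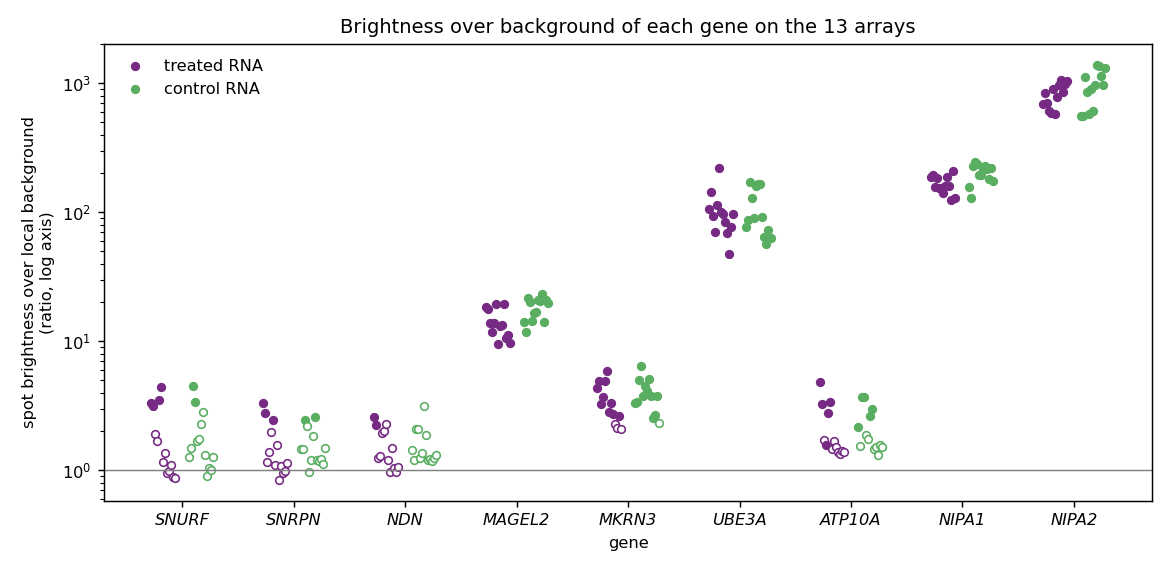
Brightness of each member probe over its local background (log axis) on every array, with treated RNA left of control RNA and filled points for spots well above background. SNRPN, SNURF, NDN and ATP10A sit near the background, MAGEL2 and MKRN3 above it, and UBE3A, NIPA1 and NIPA2 far above it in both channels.

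Under G9a siRNA, UBE3A and, by less, 3 further members were called higher than control. UBE3A stood at 240% of control, NIPA2 at 141%, NIPA1 at 140% and MKRN3 at 120%, while ATP10A, MAGEL2 and SNURF did not pass the test. The calls of NIPA1 and MKRN3 were lost with a dye term, and all of them rest on 2 replicates in a single dye orientation. Values here and below are log2 ratios of treated over control, and a member is called changed where limma's adjusted p (Benjamini-Hochberg over all 34619 probes tested) is below 0.05. The call count was 4 of 7 members, all higher, in a comparison that called 33.8% of all probes (15% higher and 18.8% lower), so a call by itself sets these members little apart. The RNA is that of whole cultures, in which fewer cells of a kind and less RNA per cell cannot be told apart.

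UBE3A had log2 ratios of 0.903 and 1.63 in the 2 G9a siRNA replicates. On the log2 brightness scale after normalization it averaged 13 ± 0.283 in G9a siRNA cells and 11.8 ± 0.212 in control siRNA cells (SD, n = 2 each). Both replicates were higher than control, and the treated and control levels did not overlap. The fitted mean was 1.27 (SE 0.192, 95% interval 0.834 to 1.7, adjusted p = 0.00335, limma). The ratio stood above 99.2% and 99.8% of all probes tested on those arrays. Without G9a siRNA replicate 2 the value was 0.903 with an adjusted p of 0.109, and without replicate 1 it was 1.63 with 0.011 (limma), each with the lone replicate taken to vary like the other treatments.

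The transporters NIPA1 and NIPA2 followed the same direction. NIPA2 had ratios of 0.315 and 0.668, with a mean of 0.49 (SE 0.121, adjusted p = 0.0134, limma). NIPA1 had ratios of 0.431 and 0.544, with a mean of 0.49 (SE 0.134, adjusted p = 0.0209, limma). Both replicates of both genes were above control. These calls were lost without G9a siRNA replicate 2, at 0.32 for NIPA2 and 0.43 for NIPA1 (adjusted p = 0.258 and 0.224), and that of NIPA1 also without replicate 1, at 0.54 (adjusted p = 0.0892, limma).

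MKRN3 was the only paternally expressed member called. Its ratios were 0.187 and 0.342, with a mean of 0.26 (SE 0.087, adjusted p = 0.0423, limma), from spots that were well above background on 1 of the 2 arrays in each channel. The call was lost when either G9a siRNA replicate was left out (0.34 with adjusted p = 0.0846 without replicate 1, 0.19 with 0.374 without replicate 2) and, at adjusted p of 0.0566 to 0.0714, without UNC0638 replicate 1 or 4 or either WIZ siRNA replicate (limma). MAGEL2, bright on both arrays, had ratios of -0.0326 and 0.0699, on either side of 0. Its mean was 0.02, with a 95% interval of -0.16 to 0.197, which leaves out a change as large as that of UBE3A. With median centring in place of loess it was -0.23 (adjusted p = 0.0601) and with a dye term -0.21 (adjusted p = 0.138, limma), so its direction depends on the processing.

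**Figure D2:**
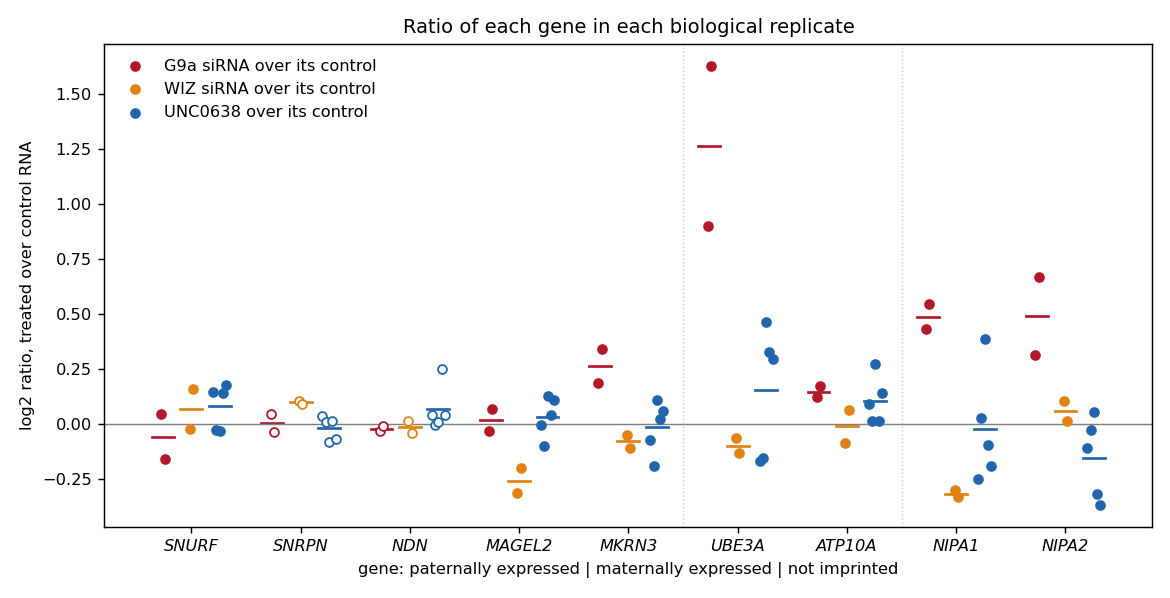
Log2 ratio of treated over control for each member in every biological replicate, with bars at the treatment mean and hollow points for probes too dim to be tested. UBE3A stands at 0.903 and 1.63 under G9a siRNA and between -0.168 and 0.463 in the other replicates.

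G9a siRNA was hybridised in a single dye orientation, and the dye-swapped arrays of the other treatments show how much the dye can move each probe. All swapped arrays belong to the array set without G9a siRNA. Whether the dye moves the probes alike in the set of G9a siRNA was not tested. Over all probes the orientations of a swapped replicate were correlated at -0.501 and -0.362 under WIZ siRNA and at 0.0408 and 0.0239 under UNC0638. Of the 18 member and replicate pairs in each treatment, 14 had opposite signs in the 2 orientations under WIZ siRNA and 14 under UNC0638. Among all probes tested, 68.6% and 66.5% had opposite signs in WIZ siRNA replicates 1 and 2, and 55.3% and 56.5% in those of UNC0638. The pairs include SNRPN and NDN, which were too dim to be tested. On the swapped arrays UBE3A ran lower with the treated RNA in Cy5, the orientation of the G9a siRNA arrays. Its ratios with treated RNA in Cy5 were -0.111 and -0.206 under WIZ siRNA and -0.325 and -0.351 under UNC0638, against -0.0166 and -0.0624, and -0.0103 and 0.0425, with treated RNA in Cy3. In the array set of G9a siRNA, UNC0638 replicates 3 to 5 with treated RNA in Cy5 had UBE3A ratios of 0.463, 0.329 and 0.297. With a dye term fitted over the 13 arrays, UBE3A under G9a siRNA was 1.25 (adjusted p = 0.00802, limma). No array of that set had treated RNA in Cy3, so the term rests on the other set for that orientation.

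NIPA1 and MKRN3 ran the other way. NIPA1 under WIZ siRNA had ratios of 0.127 and 0.0745 with treated RNA in Cy5, and of -0.73 and -0.738 with treated RNA in Cy3. MKRN3 had 0.131 and 0.129 under WIZ siRNA in Cy5, and -0.228 and -0.345 in Cy3. With the dye term, NIPA1 under G9a siRNA was 0.27 (adjusted p = 0.326) and MKRN3 0.05 (adjusted p = 0.775), both past the threshold no longer, while NIPA2 was 0.54 (adjusted p = 0.0304, limma).

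**Figure D3:**
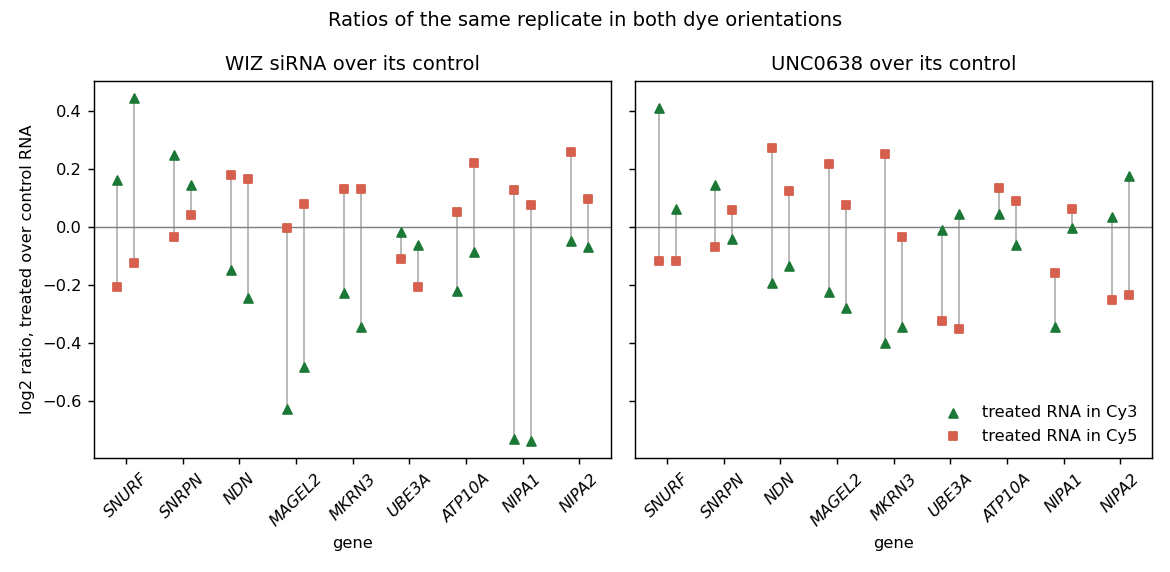
Log2 ratio of treated over control for each member on the dye-swapped arrays, WIZ siRNA on the left and UNC0638 on the right, with triangles for treated RNA in Cy3 and squares for treated RNA in Cy5. NIPA1 under WIZ siRNA lies near -0.73 in one orientation and near 0.1 in the other, whereas UBE3A under WIZ siRNA differs less between them.

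The base composition of the probes moved with the ratios on the G9a siRNA arrays. The UBE3A probe has 35% G and C. Among the 3865 probes with 32 to 38% GC, the median ratio was 0.201 and 0.276 in the G9a siRNA replicates, -0.00519 and -0.0153 in the WIZ siRNA replicates, and -0.0168, 0.0125, 0.21, 0.0607 and 0.0952 in UNC0638 replicates 1 to 5. Probes with 50 to 56% GC had medians of -0.303 and -0.409 under G9a siRNA. Within its own GC class UBE3A stood above 97.1% and 99.1% of probes in the G9a siRNA replicates, above 35.1% and 22.1% in the WIZ siRNA replicates, and above 12.4%, 10.3%, 74.6%, 86.7% and 73.8% in UNC0638 replicates 1 to 5. With the GC trend of each array removed, UBE3A under G9a siRNA was 1.02 (adjusted p = 0.00297), and with the array set fitted as well 0.812 (adjusted p = 0.0229, limma). The files give no sequence for the probes of NIPA1, NIPA2 and MKRN3, so for them the part of GC was not tested.

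**Figure D4:**
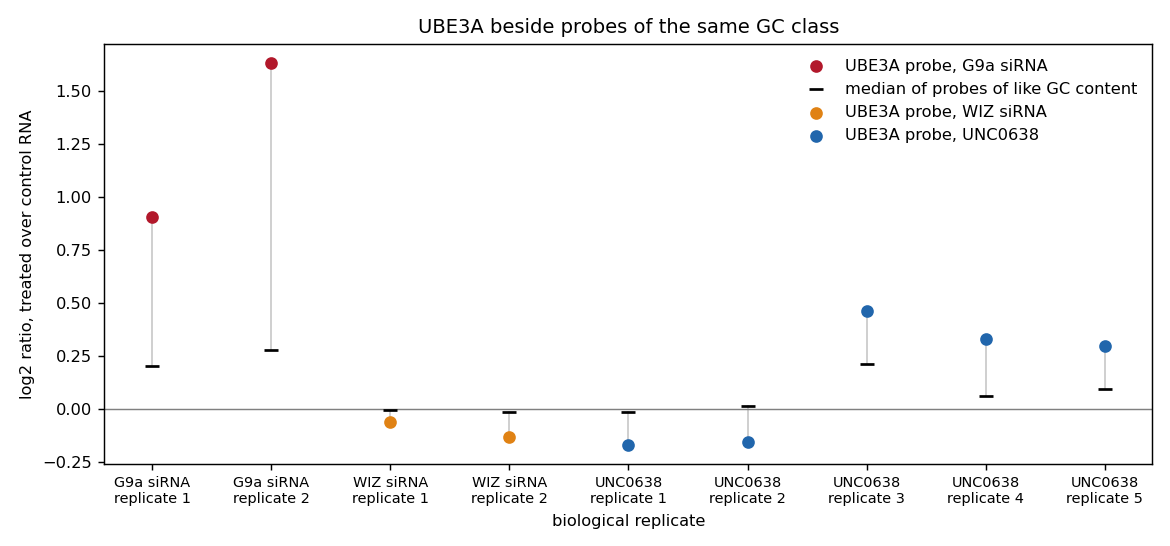
Log2 ratio of UBE3A (points) in the 9 replicates, with black bars at the median of the 3865 probes with 32 to 38% GC. UBE3A lies well above its class in both G9a siRNA replicates, above it in UNC0638 replicates 3 to 5, and below it in both WIZ siRNA replicates and in UNC0638 replicates 1 and 2.

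WIZ knockdown changed none of the 7 tested members at the threshold, in a comparison that called 0.508% of all probes (176, and 2793 at an unadjusted p under 0.05). MAGEL2 had ratios of -0.315 and -0.202, both below control and below the range of the other treatments. Its mean was -0.26 (SE 0.0791, 95% interval -0.437 to -0.0804), 83.6% of control, with an unadjusted p of 0.00932 and an adjusted p of 0.309 (limma). NIPA1 had ratios of -0.301 and -0.332, with a mean of -0.32 (95% interval -0.617 to -0.0153, adjusted p = 0.583, limma). Both averages rested on the orientation with treated RNA in Cy3, since with treated RNA in Cy5 alone MAGEL2 was 0.04 and NIPA1 0.1 (adjusted p = 0.835 and 0.704, limma). MAGEL2 passed the threshold in 4 of 26 settings and NIPA1 in 3 of 24, among them the fit on the WIZ siRNA replicates alone (adjusted p = 0.00659 and 0.00211, limma). That fit called 25.6% of all probes, against 0.508% in the main fit, and the other settings with a call 3.48 to 22.1%.

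UBE3A under WIZ siRNA had ratios of -0.0638 and -0.134, close to control in both replicates. Its mean was -0.10 with a 95% interval of -0.53 to 0.332 (adjusted p = 1, limma). NIPA2 had 0.104 and 0.0133, and MKRN3 -0.0484 and -0.108, with adjusted p of 1 for both. The intervals of NIPA2 (-0.214 to 0.331) and MKRN3 (-0.274 to 0.118) bound the changes that these arrays could have missed.

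UNC0638 likewise changed none of the 7 tested members, where 3.24% of all probes were called (1122, and 6942 at an unadjusted p under 0.05). UBE3A had ratios of -0.168, -0.154, 0.463, 0.329 and 0.297 in replicates 1 to 5. The 3 replicates hybridised in the same array set as G9a siRNA were above control, with a mean of 0.363, and the 2 in the set of WIZ siRNA were below it, with a mean of -0.161. The sets did not overlap, also with treated RNA in Cy5 alone, where replicates 1 and 2 stood at -0.325 and -0.351. MAGEL2 (-0.102 and -0.00383 against 0.0389 to 0.127) and MKRN3 (-0.19 and -0.0751 against 0.0232 to 0.11) split by set too. With treated RNA in Cy5 alone their sets overlapped, replicates 1 and 2 standing at 0.215 and 0.0752 for MAGEL2 and 0.25 and -0.0345 for MKRN3. How many of all probes split in this way was not counted. What differs between the sets cannot be told apart from what differs between these replicates. The mean over all 5 was 0.15 (SE 0.121, 95% interval -0.119 to 0.426, adjusted p = 0.509), and without replicate 3 it was 0.08 (adjusted p = 0.816, limma).

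NIPA2 was below control in 4 of 5 UNC0638 replicates, with ratios from -0.368 to 0.0555 and a mean of -0.15 (adjusted p = 0.292). ATP10A was above control in all 5, with ratios from 0.012 to 0.273 and a mean of 0.11 (95% interval -0.0134 to 0.225, adjusted p = 0.296, limma), on spots well above background in 3 of 7 channels of each kind. MAGEL2 had ratios from -0.102 to 0.127 and a mean of 0.03 (adjusted p = 0.744), and NIPA1 from -0.252 to 0.386 and a mean of -0.02 (adjusted p = 0.899, limma), with replicate 3 the highest for both. Replicate 3 alone held NIPA1 near 0, since the mean of the other 4 was -0.13 (adjusted p = 0.348). SNURF, at 2 of 7 channels above background, and MKRN3 had adjusted p of 0.457 and 0.907 (limma).

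The treatments were then compared directly, through the difference of their mean ratios. These contrasts carry the difference in exposure time and solvent between the siRNAs and the inhibitor. UBE3A was higher under G9a siRNA than under UNC0638 by 1.11 (SE 0.227, 95% interval 0.602 to 1.62, adjusted p = 0.0247), and NIPA2 by 0.65 (SE 0.143, adjusted p = 0.0275, limma). That is 2 of 7 members, both higher, where 12.5% of all probes were called (5.86% higher). The other members did not pass, NIPA1 at 0.51 (adjusted p = 0.0622) and MKRN3 at 0.28 (adjusted p = 0.1) being the nearest.

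Both calls depended on the arrays used, and so did the share of all probes called, 12.5% in the main fit. The share was 2.98%, 2.06% and 2.27% without UNC0638 replicate 1, 2 or 4. It was 0% within the array set of G9a siRNA and 0.832% with array set as a term. A call lost in these settings therefore sets the members little apart from other probes. Within the array set that G9a siRNA shares with UNC0638 replicates 3 to 5, UBE3A differed by 0.903 and NIPA2 by 0.703, with an adjusted p of 0.252 for each (limma). With the array set as a term over all replicates the adjusted p were 0.0553 and 0.0593. Without UNC0638 replicate 3, 4 members were called (UBE3A 1.19, NIPA2 0.7, NIPA1 0.61 and MKRN3 0.31, adjusted p = 0.00392, 0.00523, 0.00271 and 0.0478), where 28.7% of probes were. Leaving out UNC0638 replicate 1, 2 or 4 or either WIZ siRNA replicate put UBE3A at adjusted p of 0.0506 to 0.0532 and NIPA2 at 0.0543 to 0.0579, and leaving out G9a siRNA replicate 2 gave 0.75 for UBE3A and 0.47 for NIPA2 (adjusted p = 0.303 and 0.32, limma).

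G9a siRNA and WIZ siRNA were matched in time and transfection but shared no array set, so their contrast carries the difference between the sets. UBE3A was higher under G9a siRNA than under WIZ siRNA by 1.36 (SE 0.271, 95% interval 0.755 to 1.97, adjusted p = 0.0139) and NIPA1 by 0.8 (SE 0.189, 95% interval 0.378 to 1.23, adjusted p = 0.0213, limma). That is again 2 of 7, both higher, in a comparison that called 20.4% of all probes (8.85% higher). Both genes had every G9a siRNA replicate above every WIZ siRNA replicate, but so had NIPA2, MKRN3, MAGEL2 and ATP10A, which were not called. How many of all probes separate in this way was not counted. The differences of NIPA2 (0.43, adjusted p = 0.104), MKRN3 (0.34, 0.0783) and MAGEL2 (0.28, 0.111) did not pass. With treated RNA in Cy5 alone the difference was 1.42 for UBE3A (adjusted p = 0.0504) and 0.39 for NIPA1 (adjusted p = 0.212, limma). The UBE3A call was lost without G9a siRNA replicate 2 (1, adjusted p = 0.123) and without WIZ siRNA replicate 1 (1.4, 0.101) or 2 (1.33, 0.0953), and that of NIPA1 without any 1 of the 4 siRNA replicates (0.75 to 0.86, adjusted p = 0.0544 to 0.148, limma). With array set as a term UBE3A was 0.841 (adjusted p = 0.221) and NIPA1 0.66 (0.274, limma), and only UNC0638 was read in both sets.

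No member differed between WIZ siRNA and UNC0638, where 0.705% of all probes were called (244, and 3801 at an unadjusted p under 0.05). The largest differences were those of MAGEL2 at -0.29 (SE 0.0936, adjusted p = 0.282) and NIPA1 at -0.29 (adjusted p = 0.545), followed by UBE3A at -0.25 and NIPA2 at 0.21 (adjusted p = 0.722 and 0.63, limma). These values do not show that the treatments act alike on the members.

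Other genes of the same stretch of chromosome 15 were read to set the members in place. Of 17 such genes, 15 had a probe and 7 were tested. The noncoding RNAs PWRN1, PWRN2, IPW, PWAR4, PWAR5 and PWARSN, and the GABA receptor subunits GABRA5 and GABRG3, were too dim, as SNRPN was. Under G9a siRNA, with 33.8% of all probes called, 1 of the 7 was called, HERC2, a giant ubiquitin ligase that binds E6AP, which fell by 0.61 on the log2 scale (adjusted p = 0.00865, limma). The other 2 HERC2 probes were lower too (adjusted p = 0.047 and 0.282, limma), but were well above background in treated RNA on 0 and 1 of the 2 arrays. The list median was 0.11 under G9a siRNA, against -0.01 over all probes. That median is the value of the noncoding RNA PWAR1, which was not well above background in either RNA on the G9a siRNA arrays. It therefore does not show a rise of the region. NPAP1, the only tested gene of the list that lies between MAGEL2 and SNRPN, was not well above background on those arrays either. No fold is given for it there. Each RNA passed on 2 of 4 arrays under WIZ siRNA and 2 of 7 under UNC0638, and NPAP1 missed the threshold in both (adjusted p = 0.674 and 0.355, limma).

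Under WIZ siRNA 0 of the 7 were called, where 0.508% of all probes were. The median was -0.18 against 0.02 over all probes, with the noncoding RNA PWAR1 the largest at -0.43 (adjusted p = 0.494, limma). Under UNC0638 1 of the 7 was called, where 3.24% of all probes were. OCA2, a melanosome transport protein, had ratios from -0.745 to -0.243 in the 5 replicates, all below control, and fell by 0.43 (SE 0.0723, adjusted p = 0.0132, limma), whereas a second OCA2 probe gave 0.05. The list median under UNC0638 was 0.04, against -0.01 over all probes. It is again the value of PWAR1, which passed on 2 of 7 arrays in each RNA.

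Among 16 factors that bind or silence imprinted DNA, G9a siRNA raised 4 and lowered 2, against 33.8% of all probes called, with a list median of 0.18. The heterochromatin proteins CBX1 (0.61), CBX3 (0.57) and CBX5 (0.67) and the silencer SMCHD1 (0.5) rose. EHMT2 itself, the siRNA's target, and TRIM28, a corepressor of zinc finger proteins (-0.7), fell. These are the brightest probe of each gene, and other probes were mixed or opposite for CBX1 (0.63 and -1.36, adjusted p = 0.00328 and 0.0937), CBX5 (-0.37, 0.137) and SMCHD1 (0.53 and -0.67, 0.0166 and 0.149, limma), while a second CBX3 probe gave 0.81. EHMT1 was not called by its brightest probe, which stood at 0.26 (adjusted p = 0.144, limma). Its other probes were lower, at -0.57 (adjusted p = 0.00512) and -0.63 (0.0788, limma), so its direction depends on the probe. The probe at -0.57 was well above background in treated RNA on 1 of the 2 arrays. WIZ siRNA called only its own target, and UNC0638 none, where 0.508% and 3.24% of all probes were called, with medians of -0.06 and -0.03. The largest value under UNC0638 was that of ZNF274, a zinc finger protein that binds within the domain, at -0.44 (adjusted p = 0.0895, limma).

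Of 7 other Sm core proteins of the spliceosome, G9a siRNA raised SNRPD2 (0.3) and lowered SNRPB (-0.84), the close paralog of SNRPN, and SNRPD1 (-0.32), with a median of 0.1. That is 3 of 7, where 33.8% of all probes were called. WIZ siRNA and UNC0638 called none, where 0.508% and 3.24% of all probes were called, with medians of -0.02 and 0.06. Of 13 partners of MAGEL2 and E6AP, 2 rose and 7 fell under G9a siRNA, with a median of -0.58, where 15% of all probes rose and 18.8% fell. USP7 (0.76) and WASHC4 (0.69) rose, and MAGED2 (-1.05), UBE2L3 (-0.96), the ubiquitin-conjugating enzyme that serves E6AP, RING1 (-0.9), WASHC1 (-0.77), MAGED1 (-0.62), HERC2 (-0.61) and TRIM27 (-0.58) fell. WIZ siRNA and UNC0638 called none of the 13, where 0.508% and 3.24% of all probes were called, with medians of 0.01 and 0.00.

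Among 15 tested relatives of NIPA1, NIPA2 and ATP10A, 6 rose and 1 fell under G9a siRNA, with a median of 0.22, where 15% of all probes rose and 18.8% fell. NIPAL3 (0.42), ATP8A1 (0.48), ATP8B1 (0.98), ATP9A (0.5), ATP11B (0.58) and TMEM30A (0.62), the chaperone of the lipid flippases, rose. ATP8B2, not well above background in the treated RNA on either array, fell. A second probe went the other way for NIPAL3 (-0.47, adjusted p = 0.07), and second probes of ATP9A (0.01, 0.926) and TMEM30A (0.31, 0.0621) missed the threshold (limma). WIZ siRNA and UNC0638 called none, where 0.508% and 3.24% of all probes were called, with medians of 0.00 and -0.01. Probes of list genes that rose under G9a siRNA had a median GC of 40% (range 35 to 50%, 11 of 14 genes with a sequence), and those that fell 48.3% (38.3 to 55%, 13 of 14).

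Of 22 tested genes that are imprinted on other chromosomes, 1 rose and 2 fell under G9a siRNA, where 33.8% of all probes were called. ZDBF2, a paternally expressed gene, rose by 1.05 (adjusted p = 0.00721), and GNAS (-0.47), the stimulatory G protein, and INPP5F (-0.49), an inositol phosphatase, fell. Of 2 other INPP5F probes 1 rose (0.37, adjusted p = 0.0316, limma), so the direction of INPP5F depends on the probe. The list median was -0.04. WIZ siRNA called none, where 0.508% of all probes were called. The median was 0.02, with PLAGL1, a zinc finger regulator of growth, the largest at 0.38. UNC0638 lowered DLX5, a homeobox factor (-0.43, adjusted p = 0.0136), and SGCE, a sarcoglycan (-0.3, adjusted p = 0.0413, limma), 2 of 22 where 3.24% of all probes were called, with a median of -0.04.

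The probes whose ratios over the 9 replicates were most like those of UBE3A were C1GALT1, a glycosyltransferase (Pearson r = 0.995), KBTBD6, an adaptor of a ubiquitin ligase (0.993), and ZNF561, a zinc finger gene (0.993). Under G9a siRNA they had ratios of 0.649 and 1.27, of 0.81 and 1.22, and of 0.423 and 0.794 in replicates 1 and 2. All 3 were above control in UNC0638 replicates 3 to 5 and below it in replicates 1 and 2, as UBE3A was. The points share arrays, dye orientation and array set, and the C1GALT1 probe has the same GC content of 35% as that of UBE3A. SNRPN was too dim to give a like pattern.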

How the data were processed

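Spot brightness was measured in both dyes on 13 arrays. The deposited intensities are mean spot and median background brightness, uncorrected, per the file headers. Each file further carries the authors' log2 ratio, background-subtracted and scaled by a brightness-dependent factor, per the file headers. The authors' deposited table holds log10 ratios, which ran control over treated on 8 arrays (r against the files' own ratios -0.877 to -0.918) and treated over control on 5 (0.925 to 0.971), and were turned. Their slope on the log2 scale was 0.301 to 0.432. The column medians were 0.00178 and -0.00027 for G9a siRNA, -0.00413 and -0.01 (treated in Cy3) and 0 and 0.0032 (Cy5) for WIZ siRNA, and 0 and -0.00301 (replicates 1 and 2, Cy3), 0.00794 and 0.00818 (Cy5) and -0.00359, -0.00609 and -0.00882 (replicates 3 to 5) for UNC0638. Scale, centring and filter of that table, like the scanner software and hybridisation batches, are not given in the sources used here.

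Intensities of all 62976 spots were corrected with normexp (offset 50) and normalized within each array by loess, with weight 0 for 4259 control spots, in limma 3.58.1 (R 4.3.3). Spots of a probe were averaged (42405 probes), ratios turned to treated over control, and swapped arrays of a replicate averaged. The 34619 probes that met the brightness filter entered a single limma fit over 9 replicates with a mean per treatment (6 residual and 3.28 prior degrees of freedom), and p-values were adjusted over all of them. The spread of the siRNA arms, with 2 replicates each, comes mostly from UNC0638. Percentages of control are 2 to the power of the mean log2 ratio. The number of arrays limits the precision.

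Gene names were updated through RefSeq accessions (25422 probes) or symbols and synonyms (1544), kept from the file for 1625 and missing for 13814. All member probes are described. Of each further list, read by its brightest probe per gene, the genes past the threshold are named and otherwise the largest, and as likest genes the 3 with the highest r. Members and lists were chosen with earlier results of these data known. The code was tested on simulated data. Some marker genes are not reported here. Alternatives covered background correction, normalization, the authors' ratios, filters, dye, array set in place of the slide, GC content, array weights and left-out replicates.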

Additional observations from a re-analysis of the deposited data

Results flagged for a closer look

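NDN under UNC0638 had a log2 ratio of 0.252 in replicate 4, against -0.00573 to 0.0426 in the other 4 replicates. It was set apart because its gap to the next replicate is large for the range of the 5 values. Chance sets apart about 1 in 20 such groups, and the probe was not well above background on any control channel.

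A test of the difference between treatments set apart 4 further values. UBE3A was higher under G9a siRNA than under UNC0638 by 1.11 (adjusted p = 0.0247) and than under WIZ siRNA by 1.36 (adjusted p = 0.0139, limma). NIPA1 was higher under G9a siRNA than under WIZ siRNA by 0.804 (adjusted p = 0.0213), and NIPA2 higher than under UNC0638 by 0.646 (adjusted p = 0.0275, limma). Each rests on 2 G9a siRNA replicates in a single dye orientation, and G9a siRNA shared no array set with WIZ siRNA.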

How the results depend on the processing

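Of the 8 calls on members under G9a siRNA and in its differences from the other treatments, none changed sign in any setting run. Several values that missed the threshold did, among them MAGEL2 under G9a siRNA (-0.231 with median centring), MAGEL2 and NIPA1 under WIZ siRNA (0.0373 and 0.101 with Cy5 alone) and UBE3A under UNC0638 (-0.161 in array set 1 alone). UNC0638 against DMSO and WIZ siRNA against UNC0638 kept 0 of 7 members called in every setting run. Under WIZ siRNA (0 called) there was 1 with a dye term and 2 each in array set 1 alone, with array weights and in the treatment's own replicates. In that order, these settings called 3.48%, 10.1%, 22.1% and 25.6% of all probes. Under G9a siRNA (4) there were 2 with median centring, 2 with a dye term, 1 in array set 2 alone, 2 with array set as a term, and 0 to 4 when 1 replicate was left out (0 without G9a siRNA replicate 2). For G9a siRNA minus UNC0638 (2) there was 1 with the authors' log2 ratio, 0 in array set 2 alone, with array set as a term and in the compared replicates alone, 4 with array weights, and 0 to 4 with 1 replicate left out. For G9a siRNA minus WIZ siRNA (2) there was 1 with a dye term, 0 with Cy5 alone, 0 with array set as a term, 5 with array weights, 4 in the compared replicates alone, and 0 to 2 with 1 replicate left out. The share of all probes called moved with the setting too, given here in the same order and without the left-out replicates. Under G9a siRNA it was 33.7%, 15.3%, 20.5% and 16.1%. For G9a siRNA minus UNC0638 it was 5.72%, 0%, 0.832%, 0.0231% and 28.2%. For G9a siRNA minus WIZ siRNA it was 13.9%, 1.98%, 0.00578%, 38.9% and 38.8%. Settings with fewer arrays have fewer degrees of freedom, and otherwise the cause was not tested. UBE3A under G9a siRNA was called in 26 of 27 settings, from 0.812 to 1.63.

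Replicate numbers were not shown to pair samples, since deviations of same-numbered replicates correlated at -0.277 to 0.365 across treatments. With the replicate number as a block, UBE3A under G9a siRNA was 1.27 (adjusted p = 0.00624, limma), 3 of 7 members were called under G9a siRNA, and MKRN3 was the member whose call was lost (adjusted p = 0.0659). The block called 29.7% of all probes there, against 33.8% without it, 0.162% against 0.508% under WIZ siRNA and 2.2% against 3.24% under UNC0638. Over all probes, the count under WIZ siRNA went up to 8868 in its own replicates and down to 17 without WIZ siRNA replicate 2, from 176, and that under G9a siRNA was 0 without G9a siRNA replicate 2, against 11702. With the GC trend removed, 43.1% of the 16471 probes with a sequence were called under G9a siRNA. Called members were not counted there, because 6 of the 9 member probes have a sequence. Signal over background limits SNRPN, SNURF, NDN and ATP10A.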
